A study of Mus musculus with 30 samples.

Results

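R26P mutants were compared with their controls in cerebellar microvessels across all genes that the arrays measured. R26P mutants are mice that make platelet-derived growth factor B (PDGF-B) only from a human transgene. The comparison rests on 8 of the 30 arrays of the study, 4 labelled as mutant and 4 as control, each hybridised with RNA of brain microvascular fragments from cerebellum. Such fragments are short lengths of small vessel freed from brain tissue. They hold endothelial cells with whatever mural cells, basement membrane and astrocyte end feet stay attached. Each gene was read from 1 probe set, a group of short probes on the array, namely the probe set paired with that gene alone that had the highest mean over all arrays. Of 18194 genes covered, 11243 passed a filter on low values (above 4 in at least 3 arrays of the study) and were tested. All levels below are log2 signals as deposited, and 2.16 is the lowest value these arrays take.

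The mutants (Tie2Cre, R26P+/0, pdgfb-/-) lack mouse Pdgfb on both alleles and carry a copy of a human PDGF-B transgene at the Rosa26 locus, which Cre recombinase driven by Tie2 switches on. The controls (R26P+/0, pdgfb+/+) carry the same copy, which stays silent without Cre, and keep both mouse Pdgfb alleles. Cre and the loss of mouse Pdgfb came together, so their effects cannot be told apart. Tie2-Cre acts in endothelial cells and, as background, in much of the blood lineage. All 8 samples came from mice of a mixed C57/SV129 background. The controls were 1 male and 3 females and the mutants 2 males and 2 females. Titles give an age of 1 year and the characteristics give 2 months, and nothing in the labels settles which holds. The labels call the arrays biological replicates, and 4 arrays per genotype set the precision. Each genotype also has 4 cerebrum arrays under the same numbers and sex labels. The labels do not state that a number marks 1 mouse, but same-numbered arrays of both regions deviated together, with correlations of 0.479 to 0.840, and are treated as pairs.

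PDGF-B is released by endothelial cells and held at the vessel wall. It binds the receptor PDGFR-beta on pericytes and smooth muscle cells, the mural cells that wrap capillaries and larger vessels, and draws them along growing vessels. Brain capillaries carry an especially dense pericyte coat. Mice with too little PDGF-B keep a thin coat, and the series uses these genotypes as pericyte-deficient models.

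The arrays were first set against their labels. Xist, transcribed from the inactive X chromosome of females, and the Y-linked gene Eif2s3y matched the sex label on 8 of 8 arrays. Correlations over the genes tested lay between 0.981 and 0.991 among controls, between 0.971 and 0.990 among mutants, and between 0.941 and 0.973 across genotypes. The endothelial markers Pecam1, Cdh5, Kdr, Tie1 and Cldn5 were read at 9.12 or higher on every array. Markers that define cerebellar neurons were low in both groups, with the Purkinje cell gene Pcp2 between 2.45 and 3.67 and the granule neuron gene Gabra6 between 2.21 and 4.96, so these markers give little check of the labelled region. The red cell genes Hba-a1 and Alas2 and the T cell gene Cd3e stood at 2.16 on all 8 arrays. Other leukocyte markers were highest in control 4. It read S100a8 at 4.86, S100a9 at 3.13 and Cd79a at 2.58, against at most 2.51, 2.76 and 2.16 on the other arrays. The mean over the blood leukocyte list was 4.36 in control 4 and 4.45 in mutant 4, against 3.66 to 3.90 on the others.

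Mutant 3 stood apart. It read the pituitary hormone genes Gh at 14.75, Prl at 10.95, Cga at 14.42 and Pomc at 13.59, against at most 2.85, 2.16, 2.78 and 11.05 on the other arrays. Its Pdgfb signal was also the highest of the mutants. Over 238 genes that differ between cerebellum and cerebrum in wild-type fragments of this series, its cerebellum array lay in the wild-type direction from its cerebrum array for 157, with a median difference of 0.14, whereas the other 7 pairs of arrays gave 188 to 227 genes and medians of 0.47 to 1.33. By their labels those wild-type mice were 2 months old, with replicates 1 and 2 female and replicate 3 male in each region. Whether age alters the regional differences was not tested. Values without the mutant 3 array are given beside many of the results below, and the part of its pituitary RNA in other values was not tested. Mutant 4 also differed. Among the 4 mutants it had the lowest mean over the pericyte list (7.52, the others 8.07 to 8.42) and the highest over the interferon list (11.52, the others 10.83 to 10.92).

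In mutants 978 genes were lower (8.7% of those tested) and 780 were higher (6.94%) at an adjusted p below 0.05, in limma's moderated test with Benjamini-Hochberg adjustment over all genes tested. Either direction together took in 1758 genes (15.6%). These shares of all genes tested are the background for every count of a gene list below. The falls were the larger changes: 533 of the lower genes (4.74% of those tested) had at least 2-fold less signal, against 174 of the higher genes (1.55%) with at least 2-fold more, 707 together (6.29%). The median size of a called change was 1.08 for lower and 0.58 for higher genes, on the log2 scale. Levels of the genotypes did not overlap for 2564 genes (22.8%), 1294 lower (11.5%) and 1270 higher (11.3%). Without mutant 3, 648 genes were lower (5.76%) and 469 higher (4.17%), 1117 in all (9.94%), of which 624 and 447 were among the first calls, and 0 of the 1758 genes changed sign. Without control 1 the counts were 675 lower and 468 higher, and without mutant 4, 843 lower and 538 higher. Without mutant 1 or mutant 2 the higher genes were 481 and 497. The balance of directions depended on scaling. After renewed quantile normalization of the 8 arrays 946 genes were lower and 1250 higher, and after a shift of each array to a common median 946 were lower and 1086 higher.

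Mutant 4 had the lowest of the 4 mutant values for 557 of the 978 lower genes. Mutants 1, 2 and 3 had it for 101, 164 and 156. Among the 780 higher genes the highest value was shared more evenly, with 183, 211, 126 and 260 for mutants 1 to 4.

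**Figure D1:**
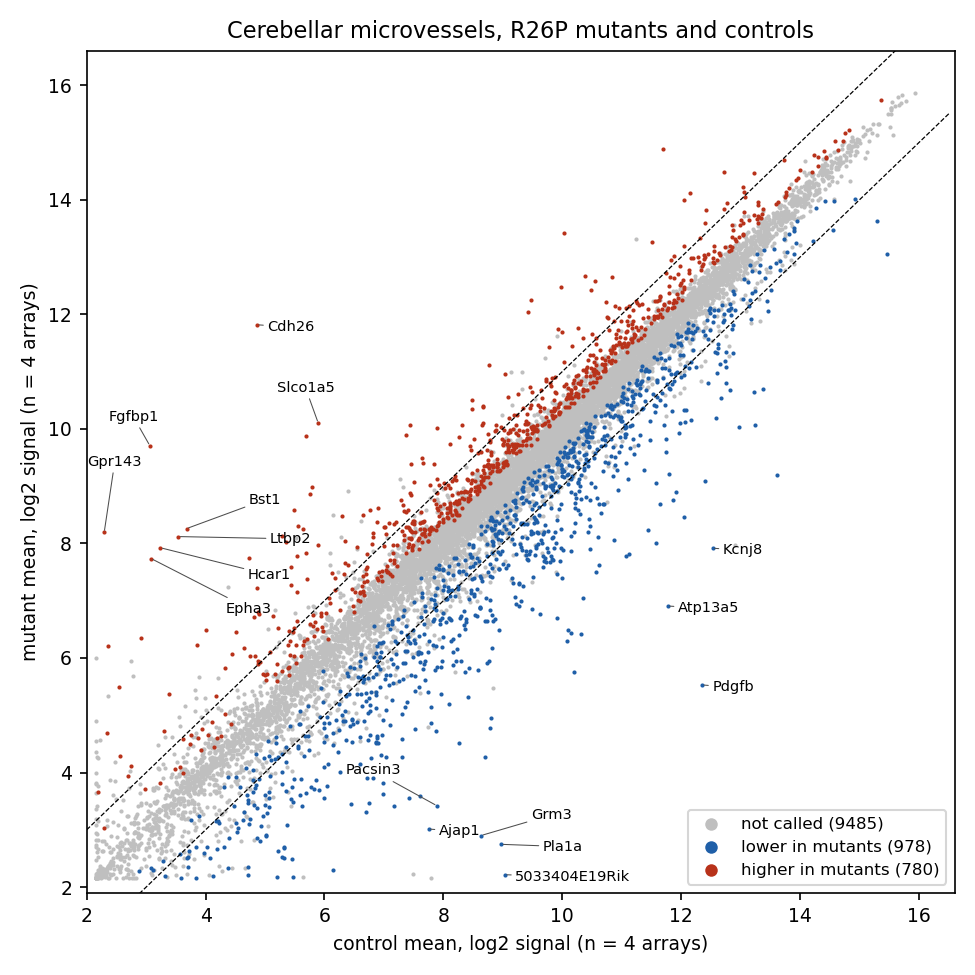
Mean log2 signal of 4 mutant arrays (vertical axis) against 4 control arrays (horizontal axis) for the 11243 genes tested, with the 978 lower genes in blue, the 780 higher genes in red and the other genes in grey. The dashed lines mark 2-fold differences, and the labelled genes are the 8 largest falls and the 8 largest rises. Pdgfb and 5033404E19Rik lead below and Cdh26 above.

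The targeted gene had the largest fall, level within the errors with that of 5033404E19Rik below (both −6.82). Pdgfb was read at 12.41, 12.52, 12.41 and 12.05 in controls 1 to 4 and at 4.73, 4.86, 7.51 and 5.02 in mutants 1 to 4. All mutants lay below all controls, with mutants 1, 2 and 4 close together and mutant 3 above them. The difference was −6.82 ± 0.59 (SE) on the log2 scale, 113-fold less signal, with an adjusted p of 0.000454. The probe set was designed for the mouse transcript, and how far it reads the human transgene is not given in the sources used here.

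The other members of the PDGF family moved as well: of 6 ligands and receptors, all tested, 5 were lower and 1 was higher, and none overlapped between genotypes. The family's median change was −1.22, against 0.00 for all genes tested. Without mutant 3, 4 were lower and 1 was higher. Pdgfrb, the receptor for PDGF-B on mural cells, was read at 13.34, 13.26, 13.47 and 13.43 in controls and at 11.07, 11.14, 10.50 and 10.05 in mutants. It fell by 2.68 ± 0.23, 6.43-fold, with an adjusted p of 0.000471. Pdgfra, the other PDGF receptor, which marks fibroblasts and oligodendrocyte precursors, fell by 1.37 ± 0.20 (adjusted p = 0.00408). The ligand Pdgfc fell by 1.08 (adjusted p = 0.0122), and the ligand Pdgfa fell by 0.88 (adjusted p = 0.0182; 0.0522 without mutant 3). Pdgfd, which also binds PDGFR-beta, was the member that rose, by 0.68 ± 0.11 (adjusted p = 0.00603).

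Pericyte genes fell almost as a block. Of 32 listed, 31 are on the array and 29 were tested, of which 27 fell, 1 rose and 1 did not pass the test, with a median change of −2.49. All 29 were without overlap between genotypes, against 22.8% of all genes tested. The list was chosen with earlier results of these data known and is no independent evidence of its direction. Because RNA of whole fragments was measured, fewer pericytes and less of a transcript per pericyte cannot be told apart, here or for any other cell type below. Without mutant 3, 26 fell and 1 rose, and without mutant 4 the counts were 27 and 1.

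Pla1a, a phospholipase, had the largest change on the list. Its levels were 8.85, 9.41, 9.04 and 8.59 in controls and 3.10, 2.44, 2.44 and 3.01 in mutants, 74.8-fold lower (log2 −6.23 ± 0.22, adjusted p = 1.26e-05). Grm3, a metabotropic glutamate receptor, was read at 8.43, 8.83, 8.64 and 8.63 and at 3.05, 2.75, 3.35 and 2.46, a fall of 5.73 ± 0.19 (adjusted p = 1.26e-05). For both genes the mutants lay within 0.89 of each other near the bottom of the scale, and every control was more than 5 log2 units above them.

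Atp13a5, a P5-type cation-transporting ATPase, stood at 11.95, 11.97, 11.67 and 11.49 in controls and spread widely in mutants, at 7.77, 8.20, 7.14 and 4.51, with mutant 4 lowest. It fell by 4.86 ± 0.74 (adjusted p = 0.00464). Kcnj8 and Abcc9 encode the pore and the regulatory subunit of the ATP-sensitive potassium channel of mural cells. Kcnj8 was read at 12.30, 12.85, 12.46 and 12.49 in controls and 8.21, 8.86, 8.18 and 6.41 in mutants, and fell by 4.61 ± 0.48 (adjusted p = 0.000869). Abcc9 was read at 13.53, 13.70, 13.61 and 13.58 and 9.58, 9.58, 8.86 and 8.72, and fell by 4.42 ± 0.21 (adjusted p = 3.57e-05). Both subunits were lower by a similar factor, 24.4-fold and 21.4-fold.

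The familiar markers Cspg4 and Rgs5 fell less. Cspg4, the NG2 proteoglycan, was at 10.49, 10.51, 10.64 and 10.81 in controls and 7.95, 8.03, 7.60 and 6.94 in mutants, a fall of 2.98 ± 0.23 (adjusted p = 0.000301). Rgs5, a regulator of G protein signalling, was at 15.36, 15.34, 15.18 and 15.27 and 13.85, 14.04, 13.66 and 12.96, a fall of 1.66 ± 0.22 (adjusted p = 0.00261). Every mutant was below every control for both, and mutant 4 was the lowest. Mutant 4 was the lowest for 22 of the 27 pericyte genes that fell, and mutant 2 the highest for 19. Falls on the list ranged from 0.94 to 6.23. Slc12a7, a potassium-chloride cotransporter, was the member that rose, by 0.58 (adjusted p = 0.0109), and the laminin chain Lamc3, with a change of 0.48, did not pass the test (adjusted p = 0.109). Both are named after their values were seen, as is Pdgfd above.

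**Figure D2:**
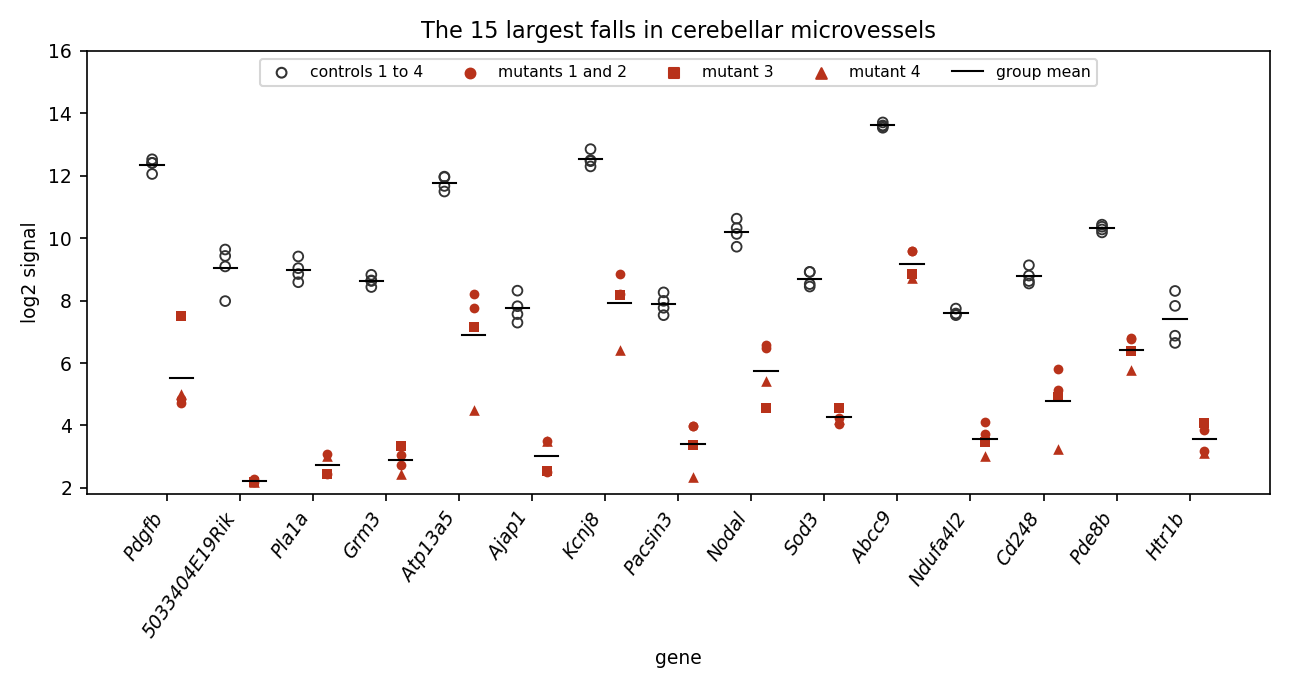
Log2 signal on each array of the 15 genes with the largest falls among those without overlap between genotypes, 4 controls (open circles) and 4 mutants (filled circles, with mutant 3 drawn as a square and mutant 4 as a triangle); short bars are group means. Pdgfb shows mutant 3 at 7.51 above the other mutants, and Atp13a5, Kcnj8 and Cd248 show mutant 4 lowest.

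Smooth muscle genes fell in part. Of 23 listed, 21 were tested, 10 fell, none rose and 11 did not pass the test, with a median change of −1.06. The most positive change was 0.68. In several alternatives 1 gene was called higher, among them renewed quantile normalization, a common median and the fit without mutant 2. Without mutant 3, 8 fell, and without control 1, 7. With the sex label as a covariate 13 fell. In cerebrum 18 of the 21 were lower. Casq2, a calcium-binding protein of the sarcoplasmic reticulum, was read at 11.71, 11.79, 11.92 and 12.02 in controls and 8.63, 9.23, 8.88 and 8.30 in mutants, and fell by 3.10 ± 0.19 (adjusted p = 0.000112). Rasl12, a Ras-like protein, fell by 2.10 (adjusted p = 0.00472). Pln, phospholamban, which restrains the calcium pump of the same store, fell by 1.62 (adjusted p = 0.0127), and the integrin Itga8 by 1.59 (adjusted p = 0.00197).

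The contractile genes named here all had lower means in mutants, but not all passed the test. The markers Acta2, Myh11 and Tagln did not pass, whereas Mylk, the myosin light chain kinase named after its values were seen, fell by 0.56 (adjusted p = 0.0113). Myh11 and Tagln changed by more than Mylk, so the calls do not part these genes by direction or size. Acta2, smooth muscle actin, was at 15.71, 15.63, 15.35 and 15.59 in controls and 15.11, 15.44, 15.29 and 14.68 in mutants, a difference of −0.44 ± 0.17 (adjusted p = 0.121), and mutant 2 lay within the range of the controls. Only 15 of the genes tested had a higher mean, and the highest value of any gene was 15.81 to 16.03 on these arrays. How far the top of the scale compresses changes was not tested. Myh11, smooth muscle myosin, was at 12.35, 12.03, 11.71 and 11.81 and 10.80, 11.58, 10.81 and 9.34, with every mutant below every control, but with a change of −1.34 ± 0.43 and an adjusted p of 0.074 it did not pass the test. Tagln, transgelin, had a difference of −1.03 ± 0.37 (adjusted p = 0.103). Mutant 4 was the lowest mutant for 18 of the 21 smooth muscle genes and mutant 2 the highest for 17.

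Serum response factor (SRF) drives contractile genes through a motif known as the CArG box, and the 250 bases before the start of each smooth muscle gene were searched for it on both strands, in RefSeq promoters of build GRCm38.p6. It was present for 2 of the 9 genes that fell and had an entry, Ldb3 and Myl9. Of the 12 windows of these genes 3 held it, against 142 of 11777 windows of all genes tested (1.21%). The Ldb3 windows with the box overlap and hold the same site, so that site is counted more than once. These matches describe the letters of the windows and are not shown to be bound. The stretches below, 120 bases 5′ to 3′ on the strand of the gene, carry the box in capitals. Ldb3 lies on chr14:34588682-34588801 on the minus strand, with the box starting 35 bases before the annotated start. Myl9 lies on chr2:156775248-156775367 on the plus strand, with the box starting 161 bases before the annotated start.
Ldb3: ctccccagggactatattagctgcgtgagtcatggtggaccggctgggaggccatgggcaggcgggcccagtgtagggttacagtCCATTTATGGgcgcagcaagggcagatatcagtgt
Myl9: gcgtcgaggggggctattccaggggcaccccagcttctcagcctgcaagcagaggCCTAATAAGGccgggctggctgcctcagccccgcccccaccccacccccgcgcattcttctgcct

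Ldb3, which anchors contractile filaments, was read at 8.38, 7.63, 7.51 and 8.03 in controls and 6.02, 6.70, 5.74 and 4.92 in mutants, and fell by 2.04 ± 0.37 (adjusted p = 0.0106; 0.0351 without mutant 3). Myl9, the regulatory light chain of smooth muscle myosin, was read at 14.83, 14.65, 14.28 and 14.47 and 13.22, 14.13, 13.63 and 12.89, and fell by 1.09 ± 0.26 (adjusted p = 0.0306; 0.0634 without mutant 3). Both genes were lowest in mutant 4, and for both all mutants lay below all controls. Myl9 was picked for its motif after its values were seen.

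Several of the other largest falls were of genes outside these lists. 5033404E19Rik, a transcript named only by its clone, went from 9.09, 7.98, 9.64 and 9.43 in controls to 2.28, 2.19, 2.19 and 2.19 in mutants, the bottom of the scale, so that its 113-fold difference is set by the lowest value the arrays can give (log2 −6.82 ± 0.33, adjusted p = 3.57e-05). Sod3, extracellular superoxide dismutase, was read at 8.53, 8.92, 8.92 and 8.45 and 4.05, 4.23, 4.57 and 4.21, with all mutants close together (log2 −4.44 ± 0.16, adjusted p = 1.26e-05). Nodal, a ligand of the TGF-beta superfamily, was read at 9.72, 10.13, 10.32 and 10.62 and 6.57, 6.47, 4.57 and 5.41 (log2 −4.45 ± 0.45, adjusted p = 0.000793). The nearest control and mutant were 5.70 apart for 5033404E19Rik, 3.88 for Sod3 and 3.15 for Nodal.

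Cd248, endosialin, a surface protein of mural and stromal cells, fell by 4.00 ± 0.49 (adjusted p = 0.00206), and mutant 4 was lowest at 3.26. Ajap1, a junction-associated membrane protein, fell by 4.74 (adjusted p = 0.000146), Pacsin3, which shapes caveolar membranes, by 4.47 (adjusted p = 0.000371). Ndufa4l2, a mitochondrial protein induced by low oxygen that is counted on the pericyte list above, fell by 4.02 (adjusted p = 6.07e-05). The cyclic nucleotide phosphodiesterase Pde8b fell by 3.89 (adjusted p = 7.71e-05) and the serotonin receptor Htr1b by 3.86 (adjusted p = 0.000939). All 15 largest falls remained below an adjusted p of 0.05 without mutant 3.

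The 15 largest rises began from very different control levels, and 3 of them had a control mean under 3. Cdh26, a cadherin, had the largest rise of all. It was read at 2.85, 4.61, 6.59 and 5.41 in controls and 11.44, 11.20, 12.16 and 12.47 in mutants, a rise of 6.95 ± 0.74 (adjusted p = 0.000975). The controls were spread over 3.73 log2 units while the mutants lay within 1.27. Fgfbp1, a secreted carrier that releases fibroblast growth factors from the matrix and responds to Wnt signalling in brain endothelium, was read at 3.03, 3.53, 2.71 and 2.98 and 9.75, 8.76, 10.19 and 10.13, a rise of 6.64 ± 0.33, 100-fold (adjusted p = 4.2e-05).

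Gpr143, a G protein-coupled receptor known from pigment cells, went from 2.31, 2.35, 2.35 and 2.17 to 8.51, 7.69, 7.77 and 8.80, a rise of 5.90 ± 0.25 (adjusted p = 1.9e-05). Hcar1, the lactate receptor, went from 3.06, 2.96, 3.92 and 3.03 to 8.03, 8.71, 6.96 and 8.00, a rise of 4.68 ± 0.38 (adjusted p = 0.000323). Epha3, an ephrin receptor, went from 2.95, 2.71, 3.00 and 3.68 to 6.95, 7.06, 8.42 and 8.52, a rise of 4.65 ± 0.42 (adjusted p = 0.000492). For each of these receptors the nearest control and mutant were more than 3 log2 units apart, and for Gpr143 5.34.

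Bst1, an ADP-ribosyl cyclase at the cell surface, rose by 4.58 ± 0.53 (adjusted p = 0.00154), from 3.16, 3.49, 4.58 and 3.49 to 8.09, 7.01, 8.42 and 9.51. Ltbp2, a matrix protein of elastic microfibrils, rose by 4.58 ± 0.68 (adjusted p = 0.00433), with mutant 2 at 6.30 and the other mutants between 8.10 and 9.10. Slco1a5, an organic anion transporter, rose by 4.21 ± 0.41 (adjusted p = 0.000685). Insm1, a zinc finger repressor of neuroendocrine cells, rose by 3.44 (adjusted p = 0.000174), the immunoglobulin superfamily member Igsf3 by 3.20 (adjusted p = 0.00425) and the actin-binding protein Ablim3 by 3.11 (adjusted p = 0.000476). Treml4, a receptor of myeloid cells, was uneven among mutants, at 5.23, 3.48, 7.20 and 8.95 against 2.16, 2.38, 2.52 and 2.36 in controls. Its rise of 3.86 ± 1.05 had an adjusted p of 0.0447, and of 0.112 without mutant 3. It was the 1 gene of these 15 that was no longer called without that array.

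**Figure D3:**
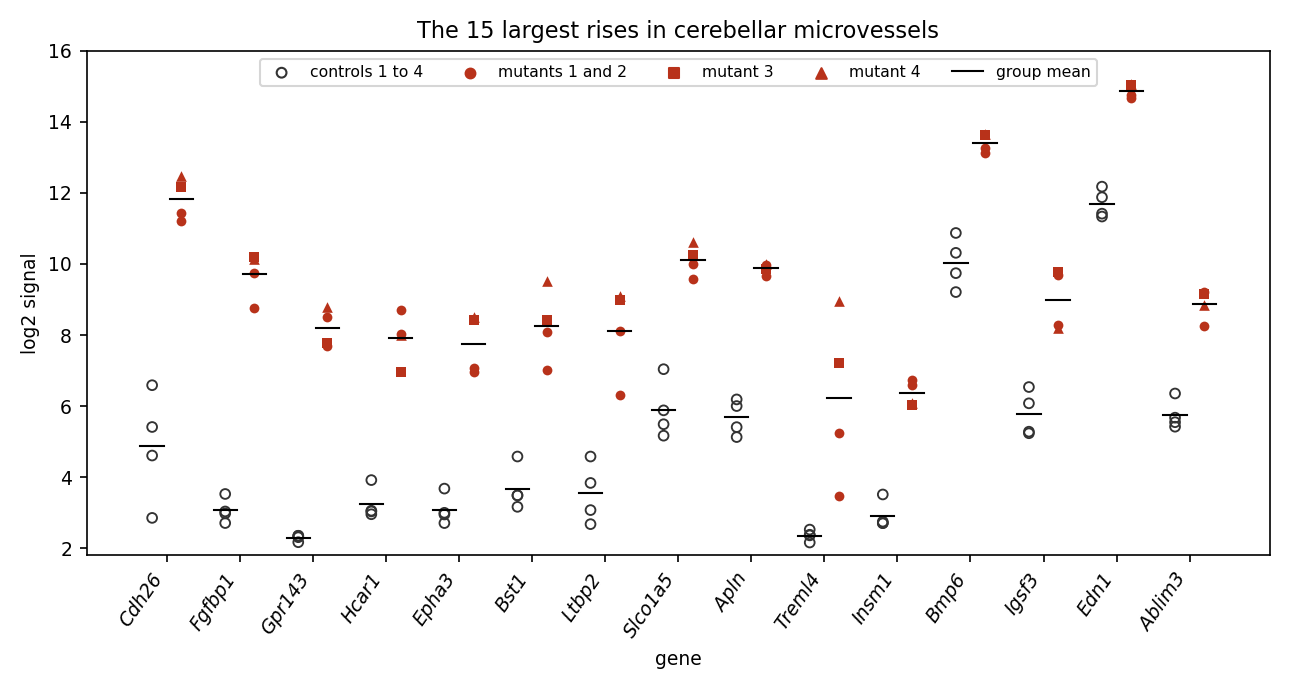
Log2 signal on each array of the 15 genes with the largest rises among those without overlap between genotypes, drawn as for the falls, with 4 controls, 4 mutants and group means. Treml4 shows the widest spread of mutants, from 3.48 to 8.95, and Apln and Edn1 the narrowest.

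Pan-endothelial genes rose or did not pass the test. Of 26 tested, 13 rose, none fell and 13 did not pass the test, with a median change of 0.36, and 10 rose without mutant 3. The VEGF receptor Flt1, named after its values were seen, with a change of −0.32 (adjusted p = 0.0518), was called lower after renewed quantile normalization, with an intensity trend in the prior and without control 1. Clec14a, an endothelial lectin that binds matrix, had the largest rise, from 12.20, 12.69, 12.62 and 12.18 in controls to 13.58, 13.97, 13.79 and 13.95 in mutants, 1.40 ± 0.15 (adjusted p = 0.00114). Eng, endoglin, a co-receptor for BMP9 and TGF-beta, went from 13.26, 13.18, 13.48 and 12.97 to 14.45, 14.44, 14.48 and 14.50, with the 4 mutants within 0.05 of each other, a rise of 1.24 ± 0.11 (adjusted p = 0.000454). The transcription factor Sox7 rose by 1.11 (adjusted p = 0.000685), the guidance receptor Robo4 by 0.88 (adjusted p = 0.000933) and the adherens junction cadherin Cdh5 by 0.56 (adjusted p = 0.0111). Pecam1 had a change of 0.58 ± 0.20 and did not pass the test (adjusted p = 0.087).

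Among 18 genes of sprouting and vessel growth, 4 rose and 1 fell, with and without mutant 3. Apln, apelin, a peptide of sprouting endothelium, was read at 6.0, 5.41, 6.19 and 5.13 in controls and 9.67, 9.96, 9.86 and 10.01 in mutants, and rose by 4.19 ± 0.23, 18.3-fold (adjusted p = 7.59e-05). Angpt2, which destabilises vessels by blocking the Tie2 receptor, was read at 9.17, 9.97, 9.49 and 9.28 and 12.32, 11.89, 12.50 and 12.28, and rose by 2.77 ± 0.20 (adjusted p = 0.000193). Its counterpart Angpt1, the activating ligand made by mural cells, fell by 1.42 ± 0.28 (adjusted p = 0.0143). Adm, adrenomedullin, rose by 2.61 ± 0.35 (adjusted p = 0.00274), and Nrp2, a VEGF-C and semaphorin co-receptor, by 1.23 (adjusted p = 0.0127). The tip cell genes Dll4, with a change of 0.08, and Esm1, with −1.14, did not pass the test (adjusted p = 0.82 and 0.187); they are named here as known counterparts of Apln, after their values were seen.

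By count, over lists of unequal size, the TGF-beta and BMP list held the most rises after the endothelial list. Of 29 tested 11 rose, 3 fell and 15 did not pass the test, with a median of 0.29. Of all genes tested 6.94% were higher and 8.7% lower. Without mutant 3, 9 rose and 2 fell. The ligands Bmp6, Tgfb2 and Bmp2 were among them. Bmp6 was read at 10.87, 10.31, 9.21 and 9.74 in controls and 13.27, 13.11, 13.62 and 13.65 in mutants, and rose by 3.38 ± 0.34 (adjusted p = 0.000777). Tgfb2 was read at 10.37, 10.90, 10.39 and 10.55 and 12.51, 12.49, 12.71 and 12.63, and rose by 2.03 ± 0.13 (adjusted p = 0.00012). Bmp2 rose by 2.02 ± 0.36 (adjusted p = 0.00939), with mutant 2 lowest of the mutants.

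The genes named here as targets of BMP signalling in endothelium all had higher means in mutants, but not all passed the test. Smad6, an inhibitory Smad, went from 10.25, 10.28, 10.39 and 10.64 to 12.98, 12.63, 12.15 and 12.88, a rise of 2.27 ± 0.19 (adjusted p = 0.000362). Atoh8, a basic helix-loop-helix factor, went from 5.38, 4.77, 4.50 and 4.24 to 7.84, 7.40, 7.85 and 7.86, a rise of 3.01 ± 0.24 (adjusted p = 0.000322). Id1, Id2 and Id3, other BMP targets looked at after their values were seen, had changes of 0.31, 0.33 and 0.34, and none passed the test (adjusted p = 0.301, 0.115 and 0.148). The type I receptor Bmpr1a, likewise picked afterwards, fell by 1.66 (adjusted p = 0.00463). The SMAD motif GGCGCC was found, on both strands, before 2 of the 9 called genes of the list with a promoter entry and in 16.8% of all windows.

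Of 18 Notch pathway genes 3 rose and 3 fell, and those that fell include mural cell members. Notch3, the receptor of mural cells, was read at 12.77, 12.74, 12.70 and 13.05 in controls and 11.28, 10.98, 10.59 and 9.89 in mutants, and fell by 2.13 ± 0.28 (adjusted p = 0.00256). The Notch target Heyl fell by 2.65 ± 0.62 (adjusted p = 0.0279; 0.0606 without mutant 3) and Hey2 by 0.98 (adjusted p = 0.0244; 0.0646 without mutant 3). The target Hey1, which is arterial and endothelial, rose by 0.76 (adjusted p = 0.0195), and the glycosyltransferase Mfng, which modifies Notch receptors, by 0.85 ± 0.08 (adjusted p = 0.000541). Without control 1, control 2 or mutant 3, 2 rose and 1 fell, without control 4, 3 and 1, and without mutant 1 or mutant 2 a single gene rose. The RBPJ motif TGGGAA was found, on both strands, before 2 of the 3 called genes with an entry and in 20.4% of all windows.

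Arterial genes rose without a fall: 7 of 17 rose and 10 did not pass the test, and 7 rose without mutant 3, with a median change of 0.52. Edn1, endothelin-1, a strong vasoconstrictor peptide, was read at 11.88, 11.41, 12.18 and 11.33 in controls and 14.75, 14.68, 15.02 and 15.06 in mutants, and rose by 3.18 ± 0.20, 9.05-fold (adjusted p = 0.00012). Bmx, a cytoplasmic tyrosine kinase of arterial endothelium, was read at 9.19, 9.26, 9.07 and 8.63 and 10.58, 10.81, 11.06 and 11.38, and rose by 1.92 ± 0.20 (adjusted p = 0.000939). The semaphorin Sema3g rose by 0.98 (adjusted p = 0.00572). The venous list gave 3 rises and 1 fall of 12 tested, with a median change of 0.57. Nrp2 and Vcam1 were among its rises. Whether the arterial and venous lists differ was not tested. The fall was that of Nr2f2, the factor that sets venous identity (−0.78 ± 0.21, adjusted p = 0.044; 0.0954 without mutant 3), and of the arrays left out in turn only the omission of mutant 2 left a gene of the list called lower. The rises were 1 without control 1, control 4 or mutant 3 and 5 without control 3.

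The vasoactive list held 3 rises and 2 falls among 12 tested, with and without mutant 3. Beside Edn1 and Adm, Ptgis, prostacyclin synthase, rose by 1.95 ± 0.15, from 12.29, 12.24, 11.64 and 12.04 to 14.16, 13.90, 13.96 and 13.98 (adjusted p = 0.000262). A pair of receptor genes fell. Ednrb, an endothelin receptor, fell by 2.07 ± 0.22 (adjusted p = 0.000939) and Ramp3, a subunit of adrenomedullin receptors, by 2.06 ± 0.19 (adjusted p = 0.000589). For Edn1, Adm and Ptgis every mutant was above every control, and for Ednrb and Ramp3 every mutant was below.

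On the list of hypoxia and glycolysis genes 3 of 20 tested rose, against 6.94% of all genes, and 17 did not pass the test, with a median of −0.02, and mutant 4 was the highest mutant for all 3. Besides Adm, Pfkfb3, which makes the activator of glycolysis fructose-2,6-bisphosphate, was read at 8.04, 8.10, 7.66 and 7.58 in controls and 9.14, 9.25, 9.27 and 9.85 in mutants, and rose by 1.54 ± 0.19 (adjusted p = 0.00213). Bnip3, a mitochondrial protein of hypoxia-induced mitophagy, was read at 12.07, 12.14, 11.74 and 11.80 and 12.52, 12.80, 12.55 and 12.97, and rose by 0.77 ± 0.14 (adjusted p = 0.0102). The core motif of hypoxia-inducible factors, ACGTG, searched on both strands, was found before 2 of these 3 genes, Pfkfb3 and Bnip3, before 12 of the 17 tested genes of the list with a promoter entry and in 21.4% of all windows. They are shown because both rose and carry the motif, which stands in capitals. Before Bnip3 both strands match, which gives CACGTG. The stretch before Pfkfb3 is chr2:11553930-11554049 and that before Bnip3 chr7:138909552-138909671, both on the minus strand of GRCm38.p6, and the motifs begin 60 and 108 bases before the annotated starts.
Pfkfb3: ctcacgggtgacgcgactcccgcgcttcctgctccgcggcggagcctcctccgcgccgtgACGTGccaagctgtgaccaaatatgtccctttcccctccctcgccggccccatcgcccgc
Bnip3: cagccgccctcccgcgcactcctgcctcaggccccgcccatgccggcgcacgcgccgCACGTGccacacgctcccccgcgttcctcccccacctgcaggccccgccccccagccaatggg

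**Figure D4:**
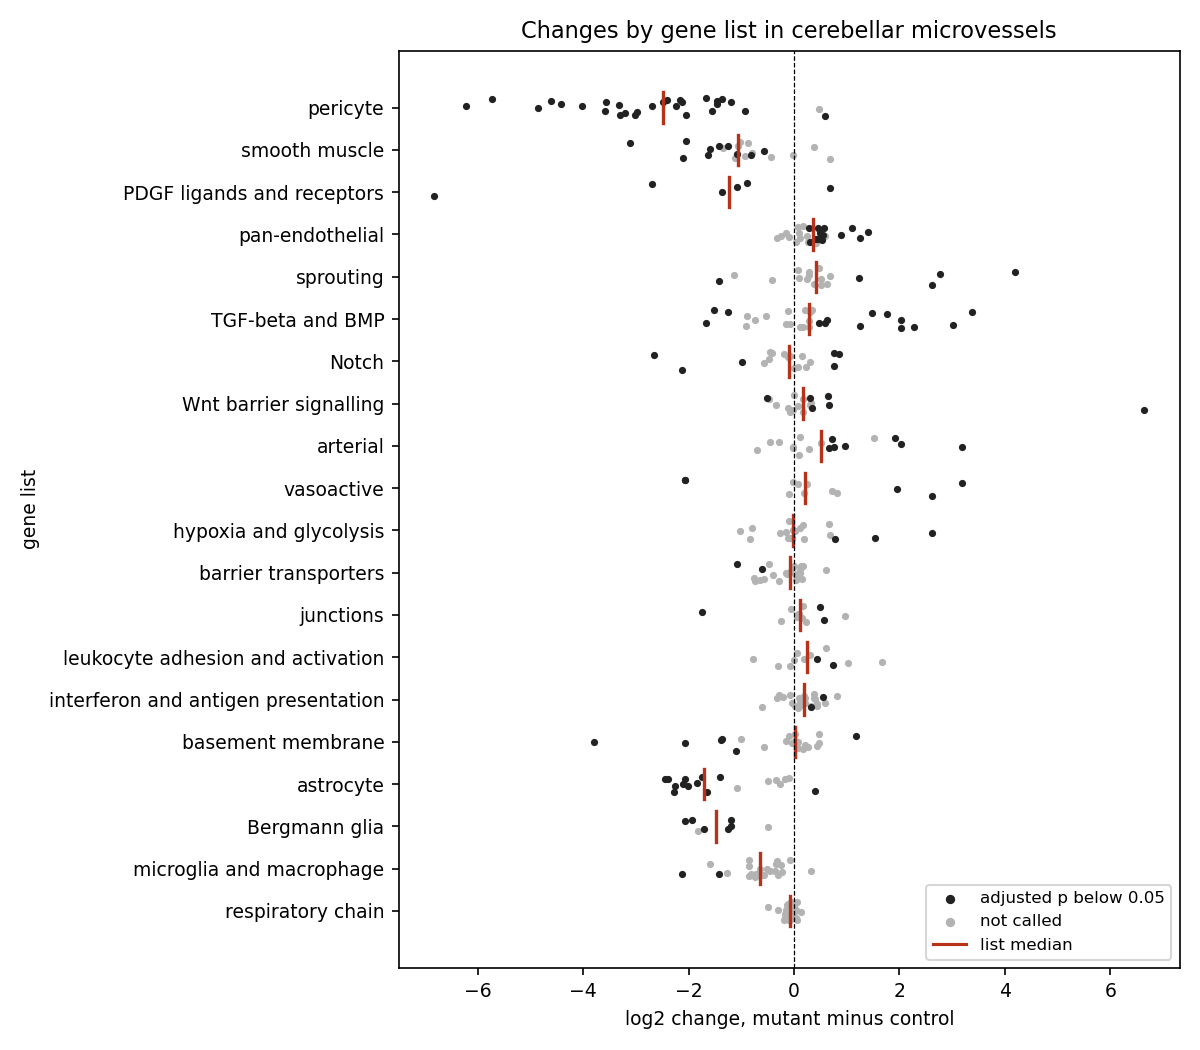
Log2 change (mutant minus control) of every tested gene in 20 of the gene lists, 1 point a gene, dark where the gene passed an adjusted p of 0.05 and light where it did not; the vertical bar is the median of the list and the dashed line is 0. The pericyte list lies furthest to the left with a median of −2.49, the astrocyte list next at −1.70, and the respiratory chain list stays close to 0.

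The molecular parts of the blood-brain barrier were called about as often as other genes. Of 23 transporters of brain endothelium, 2 fell and none rose, with a median of −0.08, against 8.7% lower among all genes. Leaving out 1 array gave 0 to 2 falls, 0 without control 1 or control 3 and 1 without control 2, control 4, mutant 3 or mutant 4. Of 13 junction genes 2 rose and 1 fell, against 15.6% called in either direction, and 1 rose without control 1, control 2 or any 1 mutant. The claudin Cldn5 was read at 15.48, 15.61, 15.57 and 15.52 in controls and 15.65, 15.76, 15.72 and 15.72 in mutants, 0.17 ± 0.06, and did not pass the test (adjusted p = 0.111). Only 6 genes had a higher mean, so it too lies near the top of the scale. Occludin, Ocln, had a change of 0.05 ± 0.12 (adjusted p = 0.811), and the glucose transporter Slc2a1 of 0.16 ± 0.06 (adjusted p = 0.11). In simulated data with the spread of these arrays but far fewer changed genes, 36% of changes of 0.5 and 70% of changes of 1 were recovered. Smaller changes were not simulated.

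Mfsd2a, the lipid transporter that holds down vesicle traffic across brain endothelium, was read at 13.04, 13.52, 13.59 and 13.19 in controls and 13.02, 12.90, 12.66 and 11.74 in mutants. Every mutant lay below every control, mutant 1 by a narrow margin, but the change of −0.76 ± 0.28 did not pass the test (adjusted p = 0.114). In cerebrum the change was −1.51 (adjusted p = 0.0364), and the difference between the regions did not pass its own test (adjusted p = 1). Tfrc, the transferrin receptor, likewise did not pass (−0.56 ± 0.22, adjusted p = 0.122), nor did Plvap, the fenestral diaphragm protein of leaky vessels (−0.01 ± 0.23, adjusted p = 0.988). The lactate and pyruvate transporter Slc16a1 fell by 1.08 ± 0.24 (adjusted p = 0.0224) and the zinc transporter Slc39a10 by 0.60 (adjusted p = 0.0375; 0.0885 without mutant 3). Among junction genes Jam3 fell by 1.75 ± 0.23 (adjusted p = 0.00253). Of 12 genes of caveolae and transcytosis, 2 fell, 1 without control 1, control 4 or mutant 3, and Lrp1, a large endocytic receptor also made by mural cells, did so by 1.65 ± 0.09 (adjusted p = 5.66e-05).

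Wnt signalling maintains the barrier in brain endothelium. Of 17 genes of that list 5 rose and 1 fell. The rises were 2 without control 1, control 2 or mutant 3, 3 without control 4, mutant 2 or mutant 4 and 1 without mutant 1, and none of the list fell without any 1 array other than mutant 1, without which 2 fell. Beside Fgfbp1, the Wnt target Axin2 rose by 0.64 ± 0.15 (adjusted p = 0.0277; 0.0744 without mutant 3) and the co-receptor Adgra2 by 0.67 (adjusted p = 0.0274; 0.0633 without mutant 3). Notum, a secreted Wnt inhibitor, was the fall (−0.51 ± 0.14, adjusted p = 0.0492; 0.0955 without mutant 3). Of this list Fgfbp1 and Sox17 were the genes called both with and without mutant 3.

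Of 12 genes of leukocyte adhesion and activation, 2 rose, against 6.94% of all genes. None rose without control 1, control 4 or mutant 3, and 1 without control 3, mutant 2 or mutant 4. Vcam1, an adhesion molecule for leukocytes, rose by 0.74 ± 0.16 (adjusted p = 0.0228; 0.0634 without mutant 3) and the chemokine Cxcl12 by 0.44 (adjusted p = 0.0306; 0.0811 without mutant 3). Of 25 interferon and antigen presentation genes 2 rose, close to the 6.94% of all genes, the membrane protein Ifitm3 by 0.32 ± 0.07 (adjusted p = 0.0231) and the GTPase Gbp2 by 0.56 (adjusted p = 0.027; 0.0543 without mutant 3). Without mutant 4, none of the interferon genes rose and 1 fell, without control 2 none rose, and without mutant 1, 2 or 3, 1 rose. Mutant 4 was the highest mutant for all 12 adhesion genes, for 22 of 25 interferon genes, for 22 of 24 microglia and macrophage genes and for all 7 blood leukocyte genes tested.

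Basement membrane genes split by chain. Of 21 tested, 5 fell and 1 rose, with and without mutant 3. Lama2, the laminin alpha-2 chain, was read at 10.18, 10.39, 9.79 and 9.94 in controls and 6.47, 6.39, 6.59 and 5.71 in mutants, and fell by 3.79 ± 0.22 (adjusted p = 7.71e-05). The partner chains Lamb1 and Lamc1 fell by 1.36 and 1.39 (adjusted p = 0.00543 and 0.00147), and the collagen chain Col4a5 by 2.07 ± 0.29 (adjusted p = 0.00321). Col18a1, whose cleavage gives endostatin, rose by 1.17 ± 0.12 (adjusted p = 0.000996). Col4a1 and Col4a2, the main collagen IV chains, had changes of 0.08 and 0.27 and did not pass the test (adjusted p = 0.588 and 0.108); they were looked at after their values were seen.

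Among 12 matrix proteases and inhibitors, 4 fell and 1 rose, and 3 fell without mutant 3. Plaur, the urokinase receptor, fell by 1.10 (adjusted p = 0.0044), the protease Adamts1 by 1.07 (adjusted p = 0.00313) and the membrane protease Mmp14 by 0.82 (adjusted p = 0.00256). Htra1, a secreted serine protease that acts on TGF-beta and matrix proteins, was read between 12.64 and 12.93 in controls and between 13.66 and 14.21 in mutants, and rose by 1.16 ± 0.13 (adjusted p = 0.0012). Of the guidance list 5 of 18 rose and 2 fell, the falls being the secreted cues Slit2 (−1.36 ± 0.27, adjusted p = 0.0144) and Ntn1 (−1.31 ± 0.19, adjusted p = 0.00392).

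By count the astrocyte list held the most falls after the pericyte list. Of 18 tested, 11 fell, 1 rose and 6 did not pass the test, with a median of −1.70, and without mutant 3, 9 fell and 1 rose. Aqp4, the water channel of astrocyte end feet, was read at 8.93, 9.37, 8.74 and 8.72 in controls and 7.84, 6.75, 5.83 and 5.52 in mutants, and fell by 2.45 ± 0.48 (adjusted p = 0.0139). Atp1b2, a sodium pump subunit, was read at 12.66, 12.49, 12.59 and 12.56 and 10.69, 10.60, 10.21 and 9.27, and fell by 2.39 ± 0.29 (adjusted p = 0.00203). Mlc1, a membrane protein of end feet, fell by 2.28 ± 0.46 (adjusted p = 0.0157), and the bicarbonate cotransporter Slc4a4 by 2.25 ± 0.37 (adjusted p = 0.00646). For all 11 that fell mutant 4 was the lowest mutant, as it was for 22 of the 27 pericyte genes above. Gfap, the astrocyte filament gene, was at most 3.38 on these arrays and was not tested.

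Genes of the Bergmann glia, radial astrocytes of the cerebellar cortex, moved alike. Of 8 tested, 6 fell and none rose, but 2 fell without mutant 3 and 3 without control 1. Itih3, a hyaluronan-associated protein, fell by 2.07 ± 0.15 (adjusted p = 0.000189) and Septin4, a cytoskeletal GTPase, by 1.26 (adjusted p = 0.001), and these calls held without that array. The homeodomain protein Hopx (−1.93, adjusted p = 0.0169) and the fatty acid-binding protein Fabp7 (−1.71, adjusted p = 0.0326) were not called without it (adjusted p = 0.0522 and 0.0855). In cerebrum 7 of the 8 genes were lower, with a median of −2.01 against −1.48 in cerebellum. The falls on this list are therefore not particular to the cerebellum.

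Neuronal RNA was scarce: 5 of 13 granule neuron genes and 4 of 14 neuron genes on the array stood at the lowest value on all 8 arrays. Zic1, a zinc finger factor of granule neurons that brain mural and meningeal cells also make, was high, at 12.05, 12.23, 12.08 and 12.29 in controls and 10.58, 10.35, 9.89 and 9.79 in mutants, and fell by 2.01 ± 0.18 (adjusted p = 0.000492). Gabra6, the GABA-A receptor subunit that marks granule neurons, was at 4.69, 3.70, 4.96 and 4.83 and 3.85, 2.93, 2.21 and 3.14, and fell by 1.51 ± 0.39 (adjusted p = 0.0382; 0.0816 without mutant 3). Map2, a microtubule protein of dendrites, fell by 2.92 ± 0.26 (adjusted p = 0.000491). Of the Purkinje cell list 1 of 6 fell, Car8 (−1.66 ± 0.36, adjusted p = 0.0213; 0.0624 without mutant 3). In cerebrum 1 gene of the granule neuron list and 2 of the Purkinje cell list were lower. The mean over the list ranged from 4.12 to 4.30 in controls and from 3.75 to 4.01 in mutants for granule neurons, and from 5.26 to 5.50 and from 4.48 to 5.03 for Purkinje cells. The part of these cells in the falls of other genes was not tested.

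Of 24 microglia and macrophage genes, 2 fell, close to the 8.7% lower among all genes, and the list's median was −0.64. They were Cd163 (−2.13 ± 0.34, adjusted p = 0.00626) and Mrc1 (−1.43 ± 0.28, adjusted p = 0.0144), both scavenger receptors of perivascular macrophages. Without mutant 4, 12 of the 24 fell and the median was −1.03. The microglial gene Tmem119 was read at 12.59, 11.31, 12.03 and 12.02 in controls and 10.44, 10.64, 11.17 and 12.25 in mutants, overlapping through mutant 4. Perivascular fibroblast and meningeal genes gave 5 falls of 15 tested, 2 without mutant 3 and 3 without control 1, control 2, mutant 2 or mutant 4. The solute carrier Slc6a13 fell by 2.36 ± 0.45 (adjusted p = 0.013), and the matrix proteoglycan Lum by 2.13 ± 0.46 (adjusted p = 0.0203; 0.0572 without mutant 3).

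No gene passed among 10 of choroid plexus and ependyma, 7 of blood leukocytes, 7 of pituitary and 33 of the respiratory chain, whose medians were −0.97, −0.06, 1.86 and −0.08. The pituitary median was 0.0 without mutant 3, the array with pituitary hormone RNA. Of the choroid plexus genes 5 fell without control 3, and 2 with the replicate number as a block. At an unadjusted p below 0.05 in limma's test, 6 of the choroid plexus genes and 0 of the other lists' genes stood out. The choroid plexus gene Ttr was read between 15.64 and 15.84 on all 8 arrays, near the top of the scale in both genotypes, and its part in other values was not tested. Oligodendrocyte genes gave 1 rise of 7 tested, Mal (0.39 ± 0.11, adjusted p = 0.0463), which was not called without mutant 3. Cell division genes gave 1 rise of 12, Mcm3 (0.56, adjusted p = 0.0276; 0.0646 without mutant 3). Of all genes tested 6.94% were higher. Of 22 immediate early and heat shock genes, which respond to the handling of tissue, 1 rose, Gadd45b (1.70 ± 0.42, adjusted p = 0.0326), and 1 fell, Hspa1a (−0.78 ± 0.20, adjusted p = 0.0363; 0.0784 without mutant 3). The list means overlapped, from 12.40 to 13.14 in controls and from 12.22 to 12.97 in mutants.

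Whether the genotype acted differently in cerebellum than in cerebrum was tested by the interaction of genotype and region over 16 arrays. It was called for 13 genes of 11243 (0.116%), positive for 8 (0.0712%) and negative for 5 (0.0445%), and 12 of them were also called when the difference between regions was taken within each pair of same-numbered arrays, a fit that called 29 genes in all. Of the 13, 4 had the larger fall in cerebellum. For St8sia1 and Ebf2 the cerebral controls lay at or near the bottom of the scale, so that little or no fall could be measured in cerebrum. Ebf2, a transcription factor of the EBF family, had a mean of 5.20 ± 0.62 (SD, n = 4) in cerebellar controls and 2.18 in mutants, against 2.61 and 2.16 in cerebrum, an interaction of −2.57 ± 0.37 (adjusted p = 0.013). Its cerebellar values were 5.69, 5.69, 4.40 and 5.03 in controls and 2.16, 2.24, 2.16 and 2.16 in mutants. St8sia1, a sialyltransferase of ganglioside synthesis, was at 3.57, 3.55, 4.45 and 3.79 in cerebellar controls, at 2.16 in all cerebellar mutants and at most 2.17 on average in either cerebral group (interaction −1.67 ± 0.21, adjusted p = 0.00262).

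Grm7, a metabotropic glutamate receptor, was at 5.95, 6.18, 6.22 and 6.20 in controls and 2.16, 2.35, 2.31 and 2.38 in mutants, a fall of 3.84 ± 0.09 in cerebellum (adjusted p = 1.6e-06) against −2.45 in cerebrum (interaction −1.39 ± 0.21, adjusted p = 0.0202). Ncald, a neuronal calcium sensor, fell by 1.67 ± 0.16 in cerebellum (adjusted p = 0.000594) against −0.40 in cerebrum (interaction −1.26, adjusted p = 0.0202). Cd247, a signalling chain of the T cell receptor, rose by 1.47 in cerebellum (adjusted p = 0.000321) and by 2.45 in cerebrum (interaction −0.98, adjusted p = 0.0427). It was the 1 of the 13 that the paired fit did not call (adjusted p = 0.0864).

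The other 8 fell more in cerebrum. In cerebellum Alx1, Cspg5, St6galnac5, Trim9 and Ncan were read at 2.43 or less on every array of either genotype, so no fall could be measured there. Alx1, a homeodomain factor of cranial mesenchyme, had means of 5.21 and 2.32 in cerebral controls and mutants. Cspg5 and Ncan, brain chondroitin sulfate proteoglycans, went from 4.81 to 2.18 and from 3.40 to 2.26. Dkk3, a Dickkopf family member, had a change of −0.41 ± 0.19 in cerebellum (adjusted p = 0.183) against −2.0 in cerebrum (interaction 1.59 ± 0.28, adjusted p = 0.0488). The sulfotransferase Chst2 had −0.65 against −2.46 (interaction 1.81, adjusted p = 0.0363), and the noncoding RNA Pantr1 −0.57 against −2.35 (interaction 1.77, adjusted p = 0.00262). In cerebellum Pantr1 controls lay between 4.17 and 4.37, mutant 2 at 3.85 and the other mutants all at 3.71. Chst2 was low in the cerebellar mutants, at 2.22 to 2.74. How far a lowest level limits the cerebellar falls of Chst2 and Pantr1 was not tested. With a filter that keeps genes of a mean above 6, limma called none (0 of 9295 tested, with 163 at an unadjusted p below 0.05). Leaving out both arrays of a mutant number left 5 or 6 calls, and leaving out those of a control number gave 10 to 15. Without mutant 3 the 5 genes still called were Alx1, Ncan, Pantr1, St6galnac5 and St8sia1, which were also called without each of the other numbers in turn. The other 8 had adjusted p of 0.0582 to 0.162 without mutant 3.

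**Figure D5:**
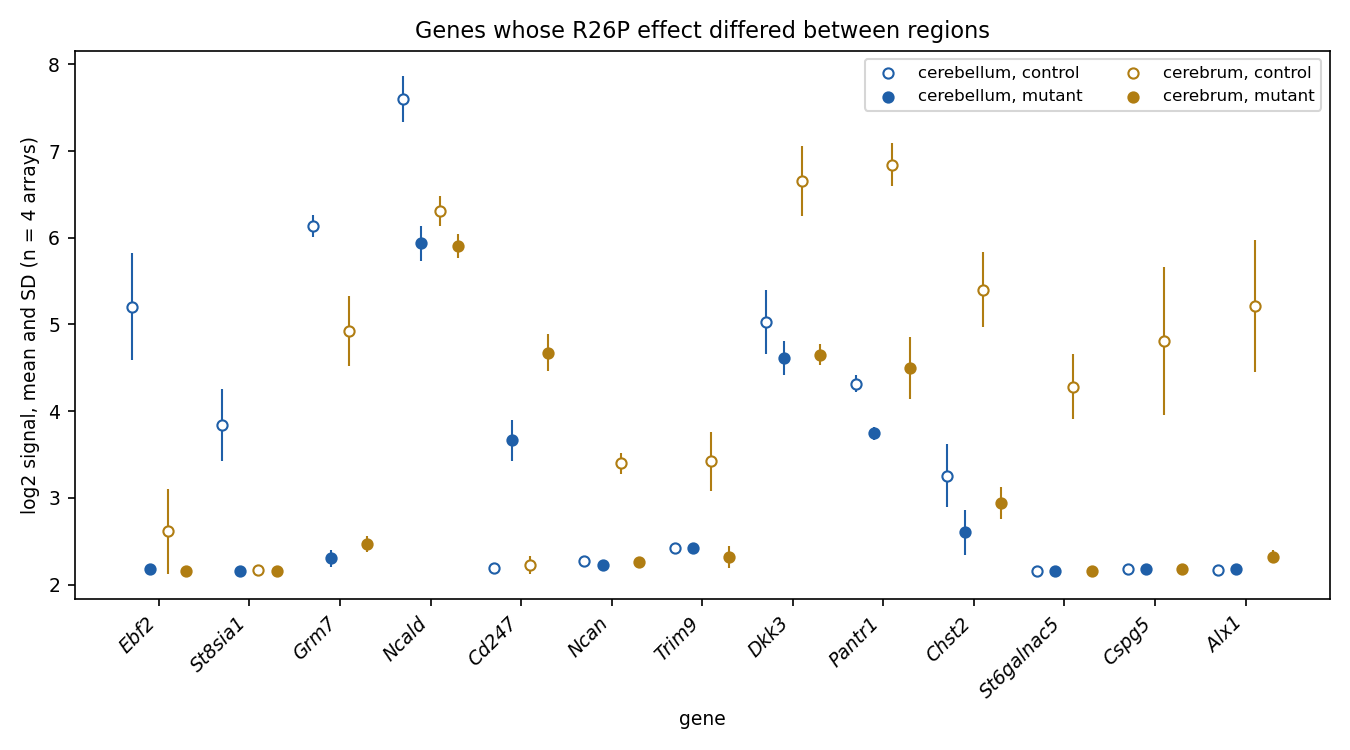
Mean log2 signal with SD of the 13 genes with a called interaction of genotype and region, in cerebellum and cerebrum, 4 control arrays (open) and 4 mutant arrays (filled) each. Ebf2, St8sia1, Grm7 and Ncald show the larger gap in cerebellum, and Alx1, Cspg5 and St6galnac5 lie at the bottom of the scale in both cerebellar groups.

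In cerebrum 1158 genes were lower (10.3%) and 939 higher (8.35%). The arrays pair with the cerebellar ones, so these values are no independent repeat. Pla1a changed by −6.23 in cerebellum and −5.61 in cerebrum, Abcc9 by −4.42 and −4.82, Aqp4 by −2.45 and −1.84, Apln by 4.19 and 4.72, and Bmp6 by 3.38 and 4.37.

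Mice of another line, in which Pdgfb lacks the motif that retains the protein at the vessel wall, were measured against heterozygotes on 8 further arrays, with no region named. Those mice were of strain C57/B6/J and 7 to 10 months old by their labels, with 3 males and 1 female among the heterozygotes and 1 male and 3 females among the mutants, so sex and genotype are partly confounded there. There 970 genes were lower (8.63%) and 900 higher (8%). Of the 978 genes lower in R26P cerebellum, 345 were lower there as well, 35.3% of the cerebellar and 35.6% of the other list, and 14 were higher. Of the 780 higher genes 269 were higher there, 34.5% and 29.9% of the lists, and 9 were lower. Pdgfb itself did not pass there (0.32, adjusted p = 0.259). The pericyte genes went together, with Pla1a at −3.94, Kcnj8 at −3.87, Abcc9 at −4.96 and Atp13a5 at −6.51 (adjusted p = 2.63e-05, 0.00042, 7.9e-05 and 2.68e-05), as did the rises of Fgfbp1 (9.13), Gpr143 (6.01) and Cdh26 (6.42; adjusted p = 3.29e-05, 6.63e-05 and 0.00109). Other genes with large cerebellar changes did not pass there. Epha3 had a difference of 0.97 (adjusted p = 0.588), Smad6 of 0.37 (adjusted p = 0.154), Ajap1 of −1.43 (adjusted p = 0.0672) and Lum of −0.02 (adjusted p = 0.981). Whether the effects of the lines differ was not tested.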

How the data were processed

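RNA of cerebellar microvascular fragments was measured on 1 array per mouse. The values are log2 signals, deposited by the authors after GCRMA 2.6.0 under R 2.4.1, per the submitters' processing notes. This shrinks weak probe sets to a lowest value: 36.6% to 37.0% of the values on each of the 8 arrays stood at it, so changes that end there are understated. The 6 wild-type arrays have another lowest value (2.17), and their levels were compared only among themselves. They did count in the choice of probe sets and in the filter, which ran over all arrays of the study.

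Of 45101 probe sets, 34958 were paired with 1 gene, 932 with several and 9211 with none in the platform annotation. A gene with more than 1 probe set (9012 of 18194) was read from the one with the highest mean over all arrays. Of 125 called genes examined, 0 had another probe set called in the opposite direction. Genes above 4 on at least 3 arrays were tested with limma 3.58.1 (lmFit and eBayes, R 4.3.3), two-sided, with Benjamini-Hochberg adjustment over all 11243 genes and a threshold of 0.05. Errors are standard errors of the log2 difference. Every adjusted p printed comes from this tool. On simulated data with known answers the fit recovered 98% of changes of 2 and 100% of changes of 4, and 3.8% of its calls were false. The simulation changed far fewer genes than were called here, all with a mean above 6. Its noise was independent between genes, with no lowest value and no array that deviates over many genes. Recovery and false calls in the real data can therefore differ from these figures.

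The difference between regions was tested as an interaction over 16 arrays. Cerebellum and cerebrum arrays of a genotype share numbers and sex labels. The labels do not say that a number marks 1 mouse. The pairing rests on the deviations from the group means, which correlated at 0.479 to 0.840 in each same-numbered pair.

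The comparison and the gene lists were chosen with earlier results of these data known. Named genes are the 15 falls and 15 rises of greatest size whose genotypes do not overlap, up to 5 called members of each list by size (or the 2 brightest where none passed), called interactions and a fixed set of markers. Prl, Tmem119, Pdgfd, Slc12a7, Lamc3, Myl9, Mylk, Dll4, Esm1, Id1, Id2, Id3, Bmpr1a, Col4a1, Col4a2 and Flt1 were named after their values were seen, Prl and Tmem119 from the marker lists. Promoters are RefSeq entries of GRCm38.p6.

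Alternatives were other filters, probe set rules, priors and scalings, a fit on all 16 R26P arrays, the sex label, the replicate number as a block, and leaving out each array.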

Additional observations from a re-analysis of the deposited data

Results flagged for a closer look

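For 145 of the genes named above the highest or lowest of the 4 arrays of a genotype was set against the other 3 by Dixon's criterion. The pituitary genes Gh, Prl and Cga, on which mutant 3 stood far above the other mutants, were not among them. Nor were the sex genes Xist and Eif2s3y, so the counts leave these genes out. Of 290 groups of 4, 20 held an array that stood apart, and for freely varying values chance alone gives about 1 in 20. The 290 include groups of almost no spread, which were counted but not tested. For 5033404E19Rik, Ebf2 and Pantr1 in mutants and Cd247 in controls the other arrays stood at a repeated low value. The share of 1 in 20 does not apply to such groups. Mutant 3 was high for Pdgfb at 7.51 (the others 4.73 to 5.02) and low for Chst2 at 2.22 (2.71 to 2.74). Mutant 4 was low for Slit2 at 6.76 (7.58 to 7.70), for Jam3 at 6.57 (6.93 to 6.99) and for Axin2 at 11.75 (12.16 to 12.25). Mutant 1 was high for Lamb1 at 8.07 (7.48 to 7.53) and for 5033404E19Rik at 2.28 (2.19). Mutant 2 was low for Atoh8 at 7.40 (7.84 to 7.86) and high for Itih3 at 6.15 (5.65 to 5.73), for Pantr1 at 3.85 (3.71) and for Ebf2 at 2.24 (2.16).

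Among controls, control 1 was low for Gbp2 at 12.69 (13.08 to 13.11), for Grm7 at 5.95 (6.18 to 6.22) and for Pantr1 at 4.17 (4.36 to 4.37), and high for Lamc1 at 9.24 (8.62 to 8.71). Control 2 was high for Septin4 at 13.44 (13.06 to 13.08) and for Slc6a13 at 7.74 (6.49 to 6.70), control 3 for Hcar1 at 3.92 (2.96 to 3.06), and control 4 for Insm1 at 3.51 (2.71 to 2.75) and Cd247 at 2.26 (2.17).

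The effect of the genotype in cerebellum minus that in cerebrum passed limma's interaction test for 13 genes. The difference was below 0 for Ebf2 (−2.57), St8sia1 (−1.67), Grm7 (−1.39), Ncald (−1.26) and Cd247 (−0.98). It was above 0 for Alx1 (2.89), Cspg5 (2.63), St6galnac5 (2.12), Chst2 (1.81), Pantr1 (1.77), Dkk3 (1.59), Trim9 (1.10) and Ncan (1.09).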

How the results depend on the processing

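The sign of the change was the same for each called gene named above under the alternatives run in which it was tested. The balance of higher and lower counts was not. Counts of called genes moved by more than 1.5 times in these settings. Requiring a change of at least 2-fold left 707 genes (533 lower, 174 higher). With no expression filter 1081 were called (600 lower, 481 higher), of which 1036 were among the 1758. Renewed quantile normalization called 1250 higher genes, with 56.9% of calls higher against 44.4% as deposited and 53.4% at a common median; these scalings moved the median change of all genes from 0.001 to 0.069 and 0.061. Leaving out 1 array gave 1117 to 1572 genes, 648 to 1000 lower and 468 to 613 higher.

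With the replicate number as a block 457 genes were higher and 787 lower. The numbers do not pair mutants with controls: the deviations of same-numbered arrays correlated at −0.050, 0.241, −0.162 and 0.273. The interaction was called for 13 genes (8 positive, 5 negative), for 6 with no filter (4 and 2), for 0 at a mean above 6 (0 and 0; 163 at an unadjusted p below 0.05 in limma), for 4 with the mean of probe sets (3 and 1) and for 29 with the difference within same-numbered pairs as replicate block (11 and 18). Leaving out 1 number gave 5 to 15 (4 to 8 positive, 1 to 7 negative).

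Of 120 called genes named above, 90 stayed called in each of 17 alternatives in which they were tested, 8 were lost in 1 to 3 and 22 in 4 or more: Adgra2, Axin2, Car8, Cxcl12, Fabp7, Gabra6, Gadd45b, Gbp2, Hey2, Heyl, Hspa1a, Ifitm3, Lum, Mal, Mcm3, Myl9, Notum, Nr2f2, Slc16a1, Slc39a10, Treml4 and Vcam1. Leaving out 1 array lost 10 to 21. The number of arrays limits the precision, and genes near the lowest value have no measurable fall.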
